A study of Homo sapiens with 8 samples.

Results

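HMOX1 and other genes of the NRF2 antioxidant response were followed across 4 groups of 293T cells, a cell line from human embryonic kidney that stably makes the large T antigen of SV40. The genes were the 10 listed members HMOX1, NQO1, GCLC, TXNRD1, SRXN1, FTH1, FTL, ME1, PIR and OSGIN1, and their values were those of the probes annotated to them. The list was chosen by the measured rise of HMOX1 in cells depleted of H1.2, so every value of the contrast of H1.2sh with NCsh is given as a description without a test. Of the 10 genes, 8 had an annotated probe and all 8 passed the filter on dim probes (a detection p under 0.05 on at least 2 of 7 scanner arrays), out of 12300 genes tested. FTH1 and OSGIN1 had no annotated probe and were not analysed here. The 8 genes had 13 probes, of which 11 were kept; a second probe of NQO1 and a second probe of GCLC were above background on 0 of 7 arrays.

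All 4 groups were 293T cells that expressed a short hairpin RNA, with no drug, stress or time course named. NCsh cells carried the control hairpin, H1.2sh cells a hairpin against the linker histone H1.2, Cul4Ash cells one against Cul4A, the scaffold of a family of ubiquitin ligases, and PAF1sh cells one against PAF1, a subunit of a complex that travels with RNA polymerase II. Each group had 2 Illumina bead arrays, 8 in all, hybridised with biotin-labelled cRNA made from total RNA. The labels name 1 hairpin for each target and no rescue, and they do not say whether the 2 replicates came from separate cultures, so p-values measure the spread between arrays, which may be technical.

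The cap'n'collar factor NRF2, encoded by NFE2L2, is held low in resting cells because KEAP1 presents it to a CUL3 ubiquitin ligase. When electrophiles or oxidants modify KEAP1, NRF2 accumulates, pairs with small MAF proteins and binds antioxidant response elements beside genes of glutathione synthesis, thioredoxin reduction, quinone reduction and NADPH supply. HMOX1 encodes the inducible heme oxygenase, which cleaves heme to biliverdin, carbon monoxide and iron; besides NRF2 it is under the repressor BACH1, and other stress pathways also act on it.

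The core of the NRF2 element reads TGACNNNGC, where N is any base, and the stretches below are shown because each holds 1 match to those letters in the start region of a member. Windows from 250 bases before to 50 bases after each annotated start were taken from RefSeq (GRCh38.p14), and 8 of the 10 members had one, all but HMOX1 and FTH1. The letters were present, on either strand, in windows of 3 members, ME1, PIR and TXNRD1, against 13.3% of all 35116 windows. The longer form TGACTCAGC, which also holds the AP-1 motif TGACTCA, was in the windows of ME1 and PIR and in 0.561% of all windows. Further matches, not printed, were on the opposite strand of ME1 at 11 from the start and of the upstream start of TXNRD1 at -8. Capitals mark the 9 matching bases; each line reads 5′ to 3′ along the gene's strand.
ME1, minus strand, chr6:83431102-83431251, match on the gene's strand, first base at -137 from the start: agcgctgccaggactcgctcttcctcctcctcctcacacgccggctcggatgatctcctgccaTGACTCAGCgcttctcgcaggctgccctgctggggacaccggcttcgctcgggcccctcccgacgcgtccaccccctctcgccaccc
TXNRD1, upstream start, plus strand, chr12:104215579-104215728, match on the gene's strand, first base at -99: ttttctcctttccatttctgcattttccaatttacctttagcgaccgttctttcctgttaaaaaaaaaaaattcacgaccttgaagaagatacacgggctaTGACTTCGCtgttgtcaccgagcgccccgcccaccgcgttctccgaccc
TXNRD1, downstream start, plus strand, chr12:104286832-104286981, match on the opposite strand, first base at -102: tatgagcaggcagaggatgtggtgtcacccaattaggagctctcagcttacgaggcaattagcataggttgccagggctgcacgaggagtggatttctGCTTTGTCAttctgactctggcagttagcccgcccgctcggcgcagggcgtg
PIR, minus strand, chrX:15493289-15493318, match on the opposite strand 26 bases after the start: ggccgcgaagcGCTGAGTCAcggtgaggct
A match in a window is a description of the letters there, and the absence of one in the windows of NQO1, GCLC, SRXN1, FTL and OSGIN1 says only that these letters are not within that window.

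The targeted genes matched the labels. On the log2 scale H1-2 was lower by -1.11 in H1.2sh, CUL4A by -1.51 in Cul4Ash and PAF1 by -2.58 in PAF1sh. Array medians lay between 82.8 and 88.7 intensity units, and replicate arrays correlated at 0.996. The 293T markers VIM, NEFL, NEFM and INA were above background, while PAX2 was detected on 0 of 7 arrays, as were the leukocyte gene PTPRC and the erythroid gene HBG1. The 4 kept summed to 7959 to 8373 in NCsh, 9331 to 9408 in H1.2sh, 9624 to 10182 in Cul4Ash and 8495 to 8657 in PAF1sh. From NCsh, in H1.2sh, Cul4Ash and PAF1sh in turn, NEFM differed by 0.13, -1.43 and -2.12 and INA by -1.14, -0.36 and -0.85. VIM differed by 0.43, 0.63 and 0.48, and NEFL by 0.14, 0.31 and -0.003. Of 4 macrophage markers, 2 were kept, CD14 and CD68; their summed intensity was 443 to 489 in NCsh, 516 to 518 in H1.2sh, 401 to 424 in Cul4Ash and 583 to 666 in PAF1sh. Of 4 erythroid markers HBA1 alone was kept, at 106 to 114, 92.9 to 141, 84.4 to 86.6 and 72.6 to 80.2 in the same order. Of 3 fibroblast markers COL1A2 was detected on 0 of 7 arrays, and COL1A1 and DCN were kept, with sums of 195 to 203, 188 to 244, 198 to 247 and 185 to 190. The 3 hepatocyte markers summed to 315 to 338, 331 to 337, 318 to 330 and 363 to 389. The part of these markers in the results was not tested. In bulk RNA, fewer cells that express a gene and less RNA per cell cannot be told apart.

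HMOX1, for whose rise in H1.2sh the list was chosen, is described first. Its single probe, ILMN_1800512, read 204 and 249 intensity units in NCsh, 531 and 637 in H1.2sh, 180 and 165 in Cul4Ash and 218 and 241 in PAF1sh. After quantile normalization of the arrays these were log2 levels of 7.74 and 7.80 in NCsh, 9.15 and 9.36 in H1.2sh, 7.49 and 7.32 in Cul4Ash, and 7.81 and 7.85 in PAF1sh. Both H1.2sh arrays lay above all 6 others, both Cul4Ash arrays lay below them all, and the PAF1sh arrays sat just above those of NCsh. The H1.2sh mean exceeded the NCsh mean by 1.48 ± 0.09 on the log2 scale (SE of the fit, n = 2 arrays a group), or 2.79-fold; since HMOX1 was chosen for this rise, no test is given.

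In Cul4Ash, HMOX1 went the other way. Its log2 level was lower than in NCsh by -0.37 ± 0.09, a level 1.29-fold lower, with an adjusted p of 0.0207 by limma with Benjamini-Hochberg adjustment over 12300 genes. The NCsh arrays here are the ones that also served in choosing HMOX1. Over 19 other settings the difference stayed between -0.59 and -0.28, while the adjusted p ran from 0.0129 to 0.156. It was above 0.05 on leaving out NCsh replicate 1 (0.0632), NCsh replicate 2 (0.0950) or Cul4Ash replicate 2 (0.129), with no filter on dim probes (0.0525), and on the 5 arrays whose scanner names and table columns match, whether from the table (0.126) or from scanner signals corrected with limma's neqc (0.156). Where 1 array stands for a group, it is assumed to vary like the other groups, and with neqc limma called 0 genes in Cul4Ash. In PAF1sh the log2 difference was 0.06 ± 0.09 (adjusted p = 0.645), with a 95% interval from -0.15 to 0.27. PAF1sh against Cul4Ash placed HMOX1 higher in PAF1sh by 0.43 ± 0.09 (adjusted p = 0.00434). The difference of these means uses none of the arrays that chose the gene. Its SE and the normalization draw on all 8 arrays, so this p is not independent of that choice. The call was lost on the 5 arrays with matching names, from the table and with neqc, where 1 array stands for PAF1sh and 1 for Cul4Ash.

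**Figure D1:**
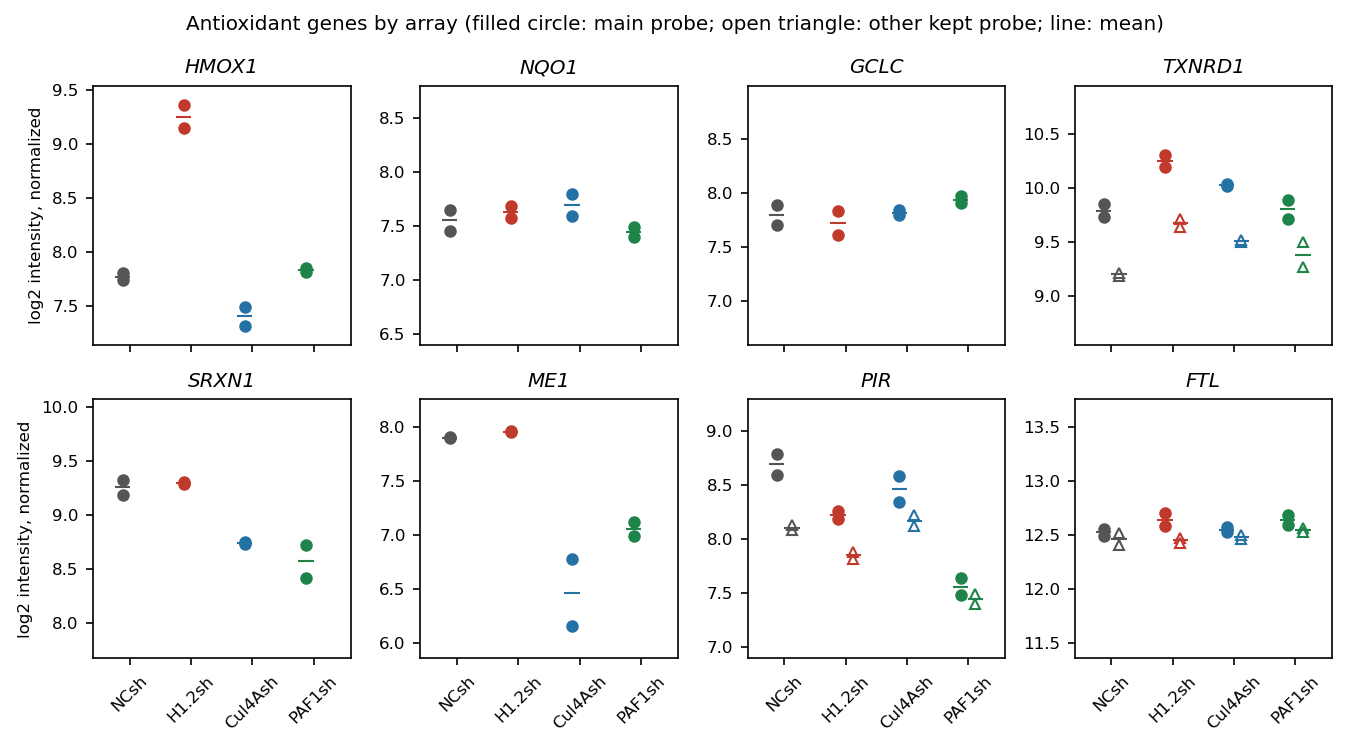
Normalized log2 intensity of the 8 measured members on each array, by group (NCsh grey, H1.2sh red, Cul4Ash blue, PAF1sh green); each panel spans 2.4 log2 units, filled circles are the main probe, open triangles another kept probe, and lines are means of 2 arrays. HMOX1 stands at 9.15 and 9.36 in H1.2sh, ME1 falls to 6.16 and 6.77 in Cul4Ash, and PIR falls to 7.48 and 7.64 in PAF1sh.

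TXNRD1, the cytosolic thioredoxin reductase, had the next highest rise over NCsh in H1.2sh among the members, on both of its probes. Its main probe, ILMN_1717056, read log2 levels of 9.73 and 9.85 in NCsh, 10.30 and 10.19 in H1.2sh, 10.02 and 10.04 in Cul4Ash, and 9.72 and 9.89 in PAF1sh. The H1.2sh arrays were the highest and those of Cul4Ash came next, without overlap with NCsh; the PAF1sh arrays overlapped NCsh. H1.2sh exceeded NCsh by 0.46 ± 0.09 on the log2 scale, and the second probe, ILMN_2324421, gave 0.47 ± 0.09. In Cul4Ash the difference was 0.24 ± 0.09 (adjusted p = 0.0805) on the first probe and 0.31 ± 0.09 (adjusted p = 0.0522) on the second, and the mean of both probes passed the threshold (0.28, adjusted p = 0.0463). In PAF1sh the main probe differed from NCsh by 0.02 (adjusted p = 0.903). The second differed by 0.18 ± 0.09 (adjusted p = 0.183), and on that probe the PAF1sh arrays lay above those of NCsh.

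SRXN1 encodes sulfiredoxin, which reactivates overoxidised peroxiredoxins. Its log2 levels were 9.19 and 9.32 in NCsh and 9.30 and 9.29 in H1.2sh, against 8.73 and 8.75 in Cul4Ash and 8.42 and 8.72 in PAF1sh. The H1.2sh arrays lay within the NCsh range, and all 4 arrays of the other depletions lay below it. SRXN1 fell in Cul4Ash by 0.51 ± 0.10 on the log2 scale (1.43-fold lower, adjusted p = 0.00638) and in PAF1sh by 0.69 ± 0.10 (1.61-fold lower, adjusted p = 0.000464). Over the other settings the difference in Cul4Ash stayed between -0.61 and -0.44; it was -0.51 with neqc on 5 arrays (adjusted p = 0.132), a setting in which 0 genes were called. PAF1sh and Cul4Ash differed by -0.17 ± 0.10 (adjusted p = 0.204), and without PAF1sh replicate 2 by -0.33 (adjusted p = 0.0285). In H1.2sh the difference from NCsh was 0.04 ± 0.10.

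ME1, the cytosolic malic enzyme that makes NADPH, had the largest fall of any member in Cul4Ash. Its intensity was 231 and 268 in NCsh, 231 and 238 in H1.2sh, 73.3 and 111 in Cul4Ash, and 136 and 132 in PAF1sh. As normalized log2 levels these were 7.91 and 7.90, 7.95 and 7.96, 6.16 and 6.77, and 7.12 and 6.99. The H1.2sh arrays lay just above the control arrays, the PAF1sh arrays were lower and the Cul4Ash arrays lower still, without overlap. ME1 fell by 1.44 ± 0.16 on the log2 scale in Cul4Ash (2.71-fold lower, adjusted p = 0.000186) and by 0.85 ± 0.16 in PAF1sh (1.80-fold lower, adjusted p = 0.00171). It was higher in PAF1sh than in Cul4Ash by 0.59 ± 0.16 (adjusted p = 0.0122).

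The lowest ME1 value carries a mismatch in the scanner output. On Cul4Ash replicate 1 its scanner signal was 123, under the 146 at which probes on that array reach detection and under the array's median of 137, yet its detection p-value was listed as 0. It was the 1 probe on that array with a detection p of 0 under the median signal. Probes with a detection p under 0.01 and a signal under the detection limit numbered 0 on both NCsh arrays and 4 to 21 on each of the 5 arrays of depleted cells, and ME1 on this array was the only member among them. Why was not tested. Without Cul4Ash replicate 1 the fall in Cul4Ash was -1.14 on the log2 scale (adjusted p = 0.000237), and the difference between PAF1sh and Cul4Ash was 0.28 (adjusted p = 0.0556). The latter also missed the threshold without PAF1sh replicate 1 (adjusted p = 0.0845). With neqc on 5 arrays, where Cul4Ash replicate 1 stands alone for its group, the difference was -3.00 (adjusted p = 0.0634), and with background subtracted from the table values it was -2.78 (adjusted p = 0.00966).

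PIR encodes pirin, an iron-containing nuclear protein. Its main probe, ILMN_1761247, read log2 levels of 8.60 and 8.79 in NCsh, 8.18 and 8.26 in H1.2sh, 8.34 and 8.58 in Cul4Ash, and 7.48 and 7.64 in PAF1sh. The PAF1sh arrays were the lowest by a wide gap, and those of H1.2sh were also below both NCsh arrays. PIR fell in PAF1sh by 1.13 ± 0.11 on the log2 scale (2.19-fold lower, adjusted p = 2.44e-05), and the second probe, ILMN_2383383, fell by 0.66 ± 0.08 (adjusted p = 0.000258). PAF1sh was also lower than Cul4Ash, by -0.90 ± 0.11 (adjusted p = 9.87e-05) on the main probe and -0.73 ± 0.08 (adjusted p = 0.000135) on the second. In Cul4Ash the 2 probes differed in sign, at -0.23 (adjusted p = 0.149) and 0.06 (adjusted p = 0.669). In H1.2sh, where HMOX1 was high, PIR was lower than in NCsh by -0.47 ± 0.11 on the main probe and by -0.26 ± 0.08 on the second.

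NQO1, the NAD(P)H quinone reductase that is often taken as a readout of NRF2, passed the test in none of the 3 tested comparisons. Its log2 levels were 7.46 and 7.65 in NCsh, 7.58 and 7.69 in H1.2sh, 7.80 and 7.59 in Cul4Ash, and 7.40 and 7.49 in PAF1sh. Each depletion overlapped the control. The difference from NCsh was 0.07 ± 0.10 on the log2 scale in H1.2sh, with an interval from -0.15 to 0.30, and its sign turned under other scalings of the arrays (-0.04 with median scaling). The differences were 0.14 ± 0.10 in Cul4Ash (adjusted p = 0.360) and -0.11 ± 0.10 in PAF1sh (adjusted p = 0.411). PAF1sh and Cul4Ash differed by -0.25 ± 0.10 (adjusted p = 0.0676), and by -0.35 without Cul4Ash replicate 2 (adjusted p = 0.0390).

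GCLC, the catalytic subunit of the enzyme that limits glutathione synthesis, also overlapped the control in H1.2sh and Cul4Ash. Its log2 levels were 7.89 and 7.71 in NCsh, 7.61 and 7.83 in H1.2sh, 7.84 and 7.80 in Cul4Ash, and 7.91 and 7.97 in PAF1sh. The PAF1sh arrays were the highest, by less than the gap between the NCsh arrays. The difference in H1.2sh was -0.08 ± 0.10, and those in Cul4Ash and PAF1sh were 0.02 (adjusted p = 0.912) and 0.14 (adjusted p = 0.283).

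FTL, the light chain of the iron store ferritin, had log2 levels of 12.49 and 12.56 in NCsh, 12.58 and 12.70 in H1.2sh, 12.53 and 12.57 in Cul4Ash, and 12.59 and 12.68 in PAF1sh on probe ILMN_1740429. All 8 arrays lay within a narrow band. The second probe, ILMN_1814823, ranged from 12.41 to 12.56, and its H1.2sh arrays overlapped NCsh (-0.01 ± 0.08, against 0.12 ± 0.08 on the first probe). FTL has processed pseudogenes of near-identical sequence, so which transcripts the probes read is uncertain. Its differences in Cul4Ash and PAF1sh were 0.03 (adjusted p = 0.854) and 0.11 (adjusted p = 0.308).

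Counted together, 0 of the 8 measured members were called higher in either depletion tested against NCsh. In Cul4Ash 0 were higher and 3 lower (HMOX1, SRXN1 and ME1). There 20.6% of all genes tested were called, 11% higher and 9.6% lower. The median difference of the members was -0.11 against 0.00 over all genes. In PAF1sh 0 were higher and 3 lower (SRXN1, ME1 and PIR). There 38.9% of all genes were called, 19% higher and 19.9% lower, so the share of members called is near that background. The median was -0.05 against 0.00. With 8 members, 0 called higher is near the shares of all genes in both depletions. These comparisons share the NCsh arrays. In PAF1sh against Cul4Ash, HMOX1 and ME1 were higher and PIR lower, where 41% of all genes were called, 19.8% higher and 21.2% lower; the share among members is near that background. Leaving out PAF1sh replicate 2 raised this count from 3 to 5.

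**Figure D2:**
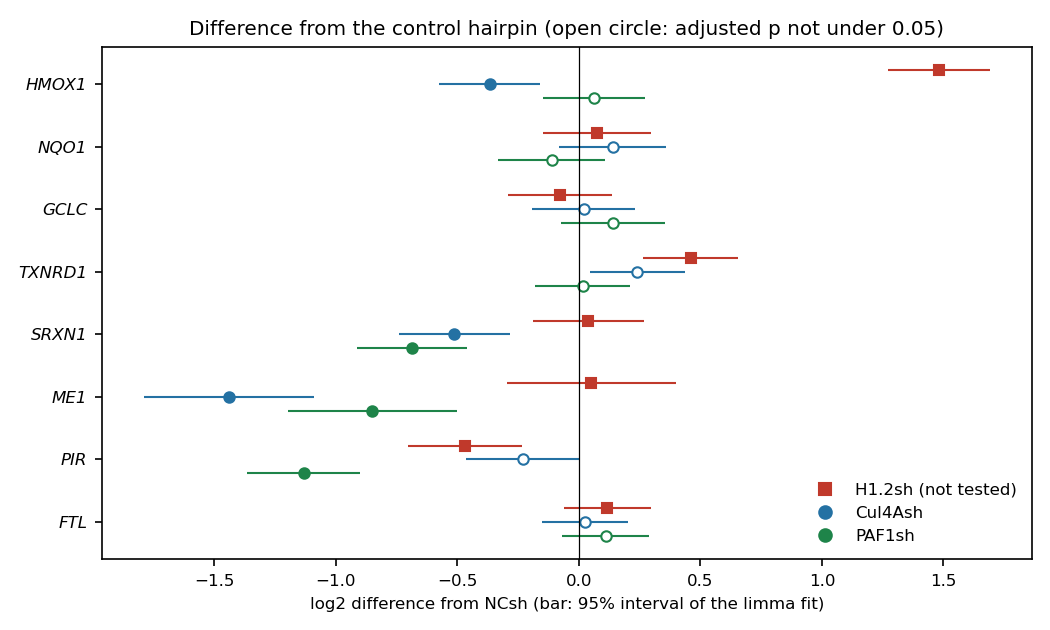
Log2 difference of each measured member (main probe) from NCsh in H1.2sh (red squares, not tested), Cul4Ash (blue) and PAF1sh (green), with 95% intervals of the limma fit from 2 arrays a group; filled circles passed an adjusted p of 0.05. HMOX1 lies at 1.48 in H1.2sh and at -0.37 in Cul4Ash, and ME1, SRXN1 and PIR lie to the left of 0 in both Cul4Ash and PAF1sh.

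**Figure D3:**
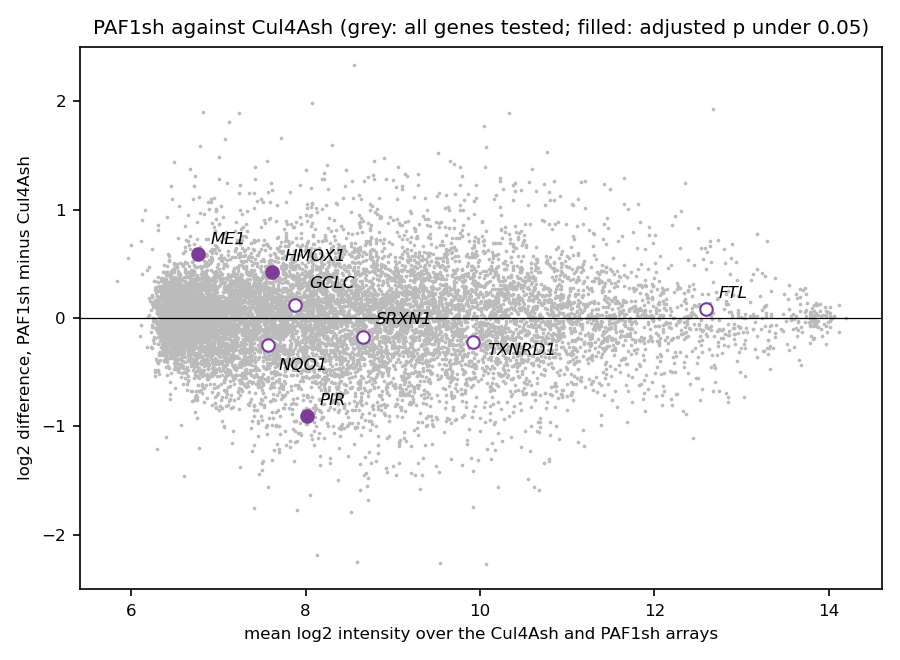
Log2 difference between PAF1sh and Cul4Ash against mean log2 intensity over the 4 arrays for all 12300 genes (grey) and the 8 members (purple, filled where the adjusted p was under 0.05); 2 genes lie beyond the axis limit of 2.5. ME1 at 0.59, HMOX1 at 0.43 and PIR at -0.90 passed the test, and each lies within the cloud of all genes.

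The Pearson correlation of each member with HMOX1, given as a description over 8 arrays that share their 4 groups and include the H1.2sh values for which HMOX1 was chosen, was 0.68 for TXNRD1, 0.65 for ME1, 0.59 for SRXN1, 0.54 for FTL, 0.12 for NQO1, -0.12 for PIR and -0.42 for GCLC. None of the 5 genes most like HMOX1 was a member. Among 1729 genes with an SD of at least 0.3 over the arrays, the highest correlations were those of PRAME, a cancer-testis antigen (0.977), ARL1, a small GTPase of the Golgi (0.962), DDR2, a collagen receptor kinase (0.944), SOCS2, a suppressor of cytokine signalling (0.944), and LASP1, an actin-binding protein (0.924). PRAME had log2 levels of 8.71 and 8.64 in NCsh, 9.49 and 9.43 in H1.2sh, 8.28 and 8.21 in Cul4Ash, and 8.61 and 8.57 in PAF1sh. Its difference in H1.2sh, 0.78, was smaller than that of HMOX1. All 5 genes were higher in both H1.2sh arrays than in any other array, which choosing them for likeness to HMOX1 favours.

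The regulators of the pathway are described next, gene by gene. KEAP1, the sensor that holds NRF2 low, read log2 levels of 8.37 and 8.44 in NCsh, 9.06 and 9.12 in H1.2sh, 9.09 and 9.15 in Cul4Ash, and 9.39 and 9.35 in PAF1sh. Every depleted array was above both controls. KEAP1 rose by 0.72 ± 0.07 in Cul4Ash (adjusted p = 0.000139) and by 0.97 ± 0.07 in PAF1sh (adjusted p = 8.72e-06), and the difference in H1.2sh was 0.69 ± 0.07. Its second kept probe gave 0.44 in Cul4Ash, 0.89 in PAF1sh and 0.61 in H1.2sh. These contrasts share the NCsh arrays.

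NFE2L2, the gene of NRF2 itself, read 8.75 and 8.60 in NCsh, 8.48 and 8.58 in H1.2sh, 8.51 and 8.46 in Cul4Ash, and 7.98 and 7.91 in PAF1sh. The PAF1sh arrays stood below all the others. NFE2L2 fell in PAF1sh by 0.73 ± 0.08 on the log2 scale (adjusted p = 9.06e-05), and was lower there than in Cul4Ash by -0.54 ± 0.08 (adjusted p = 0.000529). The differences in H1.2sh and Cul4Ash were -0.14 and -0.19 (adjusted p = 0.138 in Cul4Ash). Its relative NFE2L3 also fell in PAF1sh (-0.51, adjusted p = 0.000657), and CUL3, the scaffold of the ligase that KEAP1 serves, rose there (0.43, adjusted p = 0.00478). CUL3 lay near background, with log2 levels of 6.28 and 6.15 in NCsh and 6.59 and 6.70 in PAF1sh. The undetected probe of NQO1 read 6.35 and 6.24 in NCsh. SQSTM1, the autophagy receptor that can sequester KEAP1, rose in PAF1sh (0.28, adjusted p = 0.0134), a call lost under either other scaling (0.144 and 0.159) and without NCsh replicate 2 (0.0631) or PAF1sh replicate 2 (0.0801); its values in H1.2sh and Cul4Ash were 0.30 and -0.18.

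Among binding partners, MAFF fell in Cul4Ash (-0.36, adjusted p = 0.0275), a call lost with no normalization and without NCsh replicate 1 or Cul4Ash replicate 1. MAFF lay near background, with log2 levels of 6.81 and 6.68 in NCsh and 6.27 and 6.49 in Cul4Ash. MAFG passed there on its main probe (-0.32, adjusted p = 0.0472), but its 3 kept probes ranged from -0.45 to -0.03, and the call was lost on leaving out any 1 array of NCsh, Cul4Ash or PAF1sh. NFE2L1 differed by -0.29 in H1.2sh and by -0.10 and 0.00 in the other depletions. BACH1, the repressor of HMOX1, was detected on 0 of 7 arrays, and MAFK had no annotated probe. In all, 13 of 15 listed regulators were measured; 2 rose and 2 fell in Cul4Ash, and 3 rose and 2 fell in PAF1sh. That is 30.8% and 38.5% called, against 20.6% and 38.9% of all genes tested. The other that rose in Cul4Ash was RBX1, the RING subunit of cullin ligases (0.30, adjusted p = 0.0496, lost under either other scaling). With 1 array left out, 0 to 2 fell in Cul4Ash and 2 to 4 rose in PAF1sh.

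Downstream of HMOX1, biliverdin is reduced to bilirubin by BLVRA and BLVRB. In PAF1sh both fell, by 0.28 ± 0.07 (adjusted p = 0.0128) and 0.30 ± 0.08 (adjusted p = 0.0135). The BLVRA call was lost without NCsh replicate 1 (0.0751) or PAF1sh replicate 2 (0.0657), and the BLVRB call without either NCsh array (0.0543 and 0.0548) or PAF1sh replicate 1 (0.0649). Their differences in H1.2sh were -0.18 and -0.20. HMOX2, the constitutive heme oxygenase, differed by -0.21 in H1.2sh, -0.30 in Cul4Ash (adjusted p = 0.0956) and 0.02 in PAF1sh (adjusted p = 0.923). HMOX2 and both reductases were thus below the control mean in H1.2sh, where HMOX1 was above it. These small differences in H1.2sh were not tested. HMOX2 lay near background, with log2 levels from 6.30 to 6.86, and was detected on 6 of 7 scanner arrays.

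Other genes of heme and iron handling were called in both directions. Of 30 listed, 25 were measured; 4 rose and 5 fell in Cul4Ash, and 5 rose and 7 fell in PAF1sh, or 36% and 48% called against 20.6% and 38.9% of all genes. The number that rose in Cul4Ash was 2 under either other scaling and without NCsh replicate 1, H1.2sh replicate 2 or either Cul4Ash array. With no normalization between arrays 1 fell in Cul4Ash, and without Cul4Ash replicate 1 also 1. In PAF1sh the numbers that rose and fell were 3 to 5 and 5 to 7 under other scalings or with 1 array left out. TFRC, the transferrin receptor, fell by 0.98 ± 0.07 in Cul4Ash (adjusted p = 2.59e-05) and by 0.48 ± 0.07 in PAF1sh (adjusted p = 0.000652). Of the 4 that rose in Cul4Ash, the highest were PPOX, by 0.52 ± 0.07 (limma adjusted p = 0.000939), and UROS, by 0.47 ± 0.08 (limma adjusted p = 0.00234). In PAF1sh the mitochondrial transporter ABCB10 fell by 1.00 ± 0.08 (adjusted p = 1.25e-05) and coproporphyrinogen oxidase, CPOX, by 0.89 ± 0.08 (adjusted p = 2.60e-05). UROD, the enzyme just before CPOX in heme synthesis, rose by 0.65 ± 0.08 (adjusted p = 0.000120), and the iron exporter SLC40A1 rose by 0.62 ± 0.10 (adjusted p = 0.000695). SLC40A1 lay near background in NCsh, with log2 levels of 6.32 and 6.57, against 7.01 and 7.12 in PAF1sh. The iron importer SLC11A2 was lower in PAF1sh than in Cul4Ash by -1.08 ± 0.08 (adjusted p = 6.12e-06), and so was the ferrireductase STEAP3 by -1.05 ± 0.09 (adjusted p = 1.79e-05). In that comparison 7 genes of the list were higher and 8 lower, or 60% called against 41% of all genes. TFRC (0.51) and SLC25A28 (0.39) had the largest rises.

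The NADPH supply, to which ME1 belongs, was lower in PAF1sh at most of its other genes. Of 12 measured, 8 fell and 1 rose, with a median difference of -0.38 on the log2 scale; over all genes 19.9% fell. IDH2, the mitochondrial isocitrate dehydrogenase, fell by 0.69 ± 0.08 (adjusted p = 8.21e-05), and NNT, the mitochondrial transhydrogenase, by 0.63 ± 0.08 (adjusted p = 0.000169). The others that fell were PGD, TKT, ME2, MTHFD1, MTHFD1L and MTHFD2, by 0.26 to 0.57, and NADK, which phosphorylates NAD, rose by 0.40 (adjusted p = 0.00499). Under other scalings and with any 1 array left out, 7 or 8 of the 12 fell. In Cul4Ash 2 fell, MTHFD2 and MTHFD1L, and 1 rose, TALDO1, or 25% called, near the 20.6% of all genes. With any 1 array of NCsh or Cul4Ash left out, 0 or 1 fell and 0 or 1 rose. IDH2 and NNT also had the lowest values of the list in H1.2sh, at -0.70 and -0.89.

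Glutathione genes gave 10 higher and 3 lower of 27 measured in Cul4Ash, where 11% of all genes rose, but with median scaling or no normalization between arrays 2 were higher and 3 lower. Without NCsh replicate 1, Cul4Ash replicate 1 or Cul4Ash replicate 2 the number higher was 3, 5 and 4. GPX4, the peroxidase of lipid peroxides, rose there by 0.51 ± 0.08 (adjusted p = 0.00189), and CHAC1, which degrades glutathione, fell by 0.49 ± 0.08 (adjusted p = 0.00227). CHAC1 lay near background, with log2 levels of 6.40 and 6.50 in NCsh and 6.02 and 5.90 in Cul4Ash. The undetected probe of NQO1 read 6.25 and 6.21 in Cul4Ash. In PAF1sh 2 rose and 7 fell, or 33.3% called, against 38.9% of all genes, 19.9% of all genes being lower. Under either other scaling 1 rose and 6 fell, and fewer than 7 fell on leaving out either NCsh or either PAF1sh array. The glutathione transferases GSTM3 and GSTO1 fell by 0.74 ± 0.08 (adjusted p = 9.33e-05) and 0.58 ± 0.09 (adjusted p = 0.000414), while MGST3 rose by 0.55 ± 0.08 (adjusted p = 0.000466).

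Of 15 thioredoxin and peroxiredoxin genes, 3 rose and 1 fell in Cul4Ash, and 3 rose and 4 fell in PAF1sh. That is 26.7% and 46.7% called, against 20.6% and 38.9% of all genes. The number that rose was 1 in both without NCsh replicate 1, in Cul4Ash without its replicate 1, and in PAF1sh without its replicate 2. TXNIP, the thioredoxin-binding inhibitor, rose in both: by 0.74 ± 0.09 in Cul4Ash (adjusted p = 0.000454) and by 1.34 ± 0.09 in PAF1sh (adjusted p = 4.95e-06). The methionine sulfoxide reductase MSRA fell in PAF1sh by 0.70 ± 0.10 (adjusted p = 0.000416). SESN2, a sestrin, fell in Cul4Ash by 0.49 ± 0.08 (adjusted p = 0.00274).

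Genes of superoxide and peroxide removal gave 0 higher and 1 lower of 7 in Cul4Ash, and 2 higher and 2 lower in PAF1sh. That is 14.3% and 57.1% called, against 20.6% and 38.9% of all genes. The gene lower in Cul4Ash was catalase, CAT (-0.30, adjusted p = 0.0330), a call lost with no normalization and without any 1 array of NCsh or Cul4Ash. CAT was at the threshold in PAF1sh (-0.24, adjusted p = 0.0474), and its call there was lost under either other scaling and with any 1 array left out. CCS, the copper chaperone of SOD1, rose in PAF1sh by 0.82 ± 0.08 (adjusted p = 2.43e-05). Quinone and carbonyl genes gave 1 higher and 3 lower of 10 in Cul4Ash and 0 higher and 3 lower in PAF1sh. These are 40% and 30% called, against the same 20.6% and 38.9%. With 1 array left out 0 to 2 were higher and 1 to 3 lower in Cul4Ash. Over all 7 lists, with the members left out, 34.9% of 109 genes were called in Cul4Ash and 45% in PAF1sh, against 20.6% and 38.9% of all genes tested. The share in Cul4Ash was 22% with median scaling and 15.6% with no normalization, and in PAF1sh it was 38.5% and 36.7%. With any 1 array left out, from whichever group, both shares were below 34.9% and 45%. The 20.6% and 38.9% hold only for the quantile-normalized fit of all 8 arrays. The number called over all genes also changed with the setting, so the other shares are not set against their own background.

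**Figure D4:**
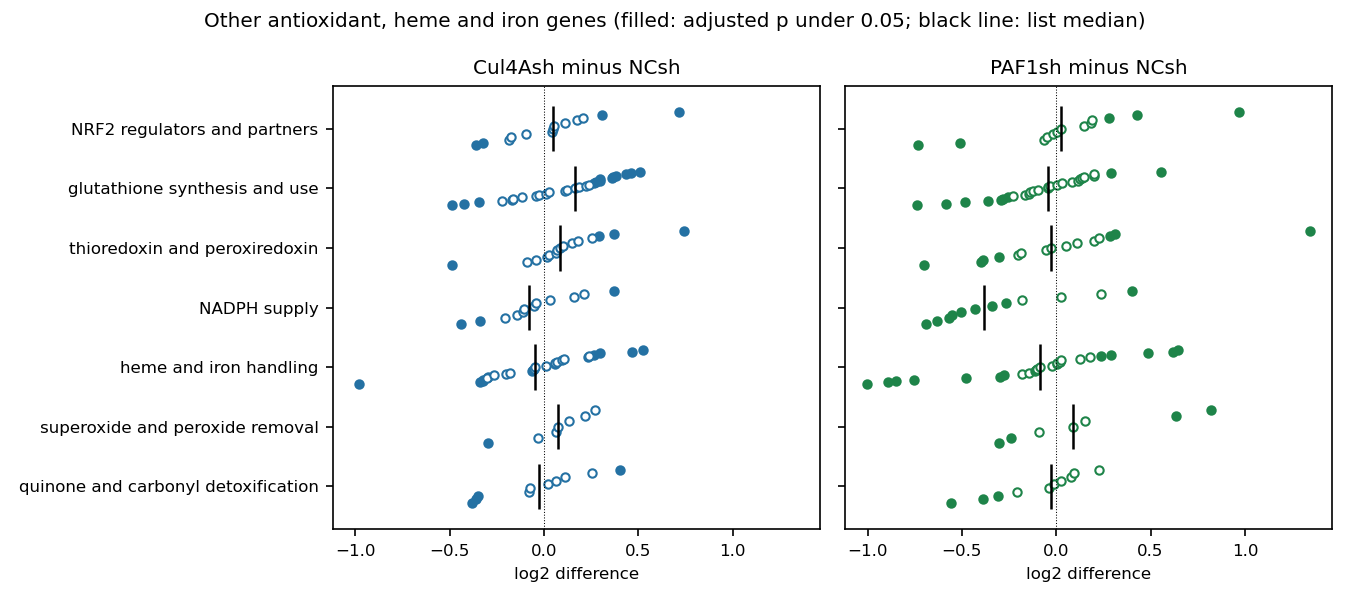
Log2 difference from NCsh of each measured gene of the 7 lists (members left out) in Cul4Ash (left, blue) and PAF1sh (right, green); filled points passed an adjusted p of 0.05 in limma, and black lines are list medians. The NADPH list in PAF1sh has its median at -0.38, and the highest points are KEAP1 at 0.97 and TXNIP at 1.34 in PAF1sh.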

How the data were processed

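Intensity values were deposited by the authors as a table of 8 arrays (47220 probes, linear scale, some background already taken off; software and genome build not given in the sources used here), with scanner signals and detection p-values for 7 arrays in a second deposited file, whose 2 columns for the eighth array are empty. Per the labels, total RNA was extracted with TRIzol and amplified as biotinylated cRNA. In the scanner file 2 arrays carry names of other groups than the table columns they match, so those names were treated as disputed and groups were taken from the table.

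Here log2 intensities were quantile normalized over 47154 probes. Probes with a detection p under 0.05 on at least 2 of 7 scanner arrays were kept, and the brightest probe with 1 gene symbol stood for a gene (12300 genes). limma 3.58.1 in R 4.3.3 fitted 4 group means (lmFit, eBayes; 4 residual and 6.19 prior degrees of freedom), with Benjamini-Hochberg adjustment over all genes and a threshold of 0.05; 2 arrays a group limit the precision. The fit was run on simulated data with independent noise and genes changed in Cul4Ash only. Far fewer genes changed there than were called here, so that run does not cover normalization or error rates under such broad change. Of the probes, 30109 had 1 gene symbol, 8 several and 17103 none. The members and lists were chosen with earlier results of these data known. All members, targets, regulators and heme enzymes were named, with the 5 genes most like HMOX1. From the lists, a rule picked up to 2 called genes a direction, list and comparison, and the 2 highest and 2 lowest differences in H1.2sh. Not all genes picked by that rule are named in the text. PGD, TKT, ME2, MTHFD1, SLC11A2, STEAP3 and SLC25A28 complete counts or come from PAF1sh against Cul4Ash. Alternatives varied the scaling, filter, probe rule, background, arrays, source (neqc, limma's background correction for bead arrays) and the replicate block.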

Additional observations from a re-analysis of the deposited data

How the results depend on the processing

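Under 19 alternatives the 3 members called in PAF1sh stayed at 3. In Cul4Ash the count ran from 0 to 4: it was 0 with neqc on the 5 undisputed arrays, where limma called 0 genes (3162 at an unadjusted p under 0.05), and 2 to 3 with 1 array left out. In PAF1sh against Cul4Ash it was 2 to 5 with 1 array left out. Small untested differences in H1.2sh changed sign: with median scaling and with no normalization NQO1 was -0.038 and -0.057, SRXN1 -0.066 and -0.084, and ME1 -0.065 and -0.084; without NCsh replicate 1 NQO1 was -0.023, SRXN1 -0.030 and GCLC 0.012; and GCLC ran from -0.188 to 0.031 with 1 array left out (0.031 without H1.2sh replicate 1). HMOX1 in H1.2sh ranged from 1.37 to 1.88. Genes called in Cul4Ash numbered 2539, against 1365 with no normalization, 1581 with no filter, 1291 on the table values of the 5 undisputed arrays (an alternative chosen after seeing the data), and 1310 to 2510 with 1 array left out. The share of them that was higher was 53.5%, against 28.2% with median scaling and 41.8% with no normalization. In PAF1sh 4784 genes were called, and 2044 with neqc; in PAF1sh against Cul4Ash 5045, 1244 with neqc and 3214 on the 5 arrays. The replicate numbers did not pair the samples (correlations of deviations -0.133 to 0.111), and with a replicate block 3 members were called in each of the 3 comparisons. Dim members such as ME1 in Cul4Ash lie near background, which compresses their differences on the log2 scale.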
